A study of Mus musculus with 4 samples.

Results

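The nuclear-encoded subunits of the mitochondrial respiratory chain and ATP synthase were taken from the array by gene symbol. The rule took symbols that begin with Nduf followed by a, b, c, s or v and a digit, the symbols Sdha to Sdhd, and those that begin with Uqcr, with Cox followed by a digit from 4 to 8, or with Atp5. It found 80 genes of the 22180 with a row of their own on the array. By the start of the symbol alone, 33 were placed in complex I, 4 in complex II, 8 in complex III, 17 in complex IV and 18 in complex V. For a gene with more than 1 row, which 9 of the 80 had, the row with the highest mean stood for it. A further 10 rows that carry such a symbol together with another gene's symbol were not used here.

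RNA came from primary osteoblasts of newborn mouse skull cap, kept for 21 days in osteogenic medium. By the labels, 2 arrays are from Runx3f/f/Col1a1-cre mice, with loxP-flanked alleles of the transcription factor gene Runx3 and a Cre recombinase driven from Col1a1, the gene for the main collagen of bone, and 2 are from wild-type mice. The labels number the arrays of each group as biological replicates 1 and 2; whether cultures came from 1 animal or a pool, and whether wild-type mice carried loxP sites or Cre, is not stated in the labels. Runx3 itself read 7.94 and 8.06 on the arrays labelled Runx3f/f/Col1a1-cre against 7.45 and 7.87 in wild type, so its level does not bear out the label, and the deleted exons are not given; these arrays are called mutant-labelled below. In bulk cultures such as these, fewer cells of a type and less RNA per cell cannot be told apart.

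Complexes I to IV pass electrons from NADH and succinate to oxygen in the inner mitochondrial membrane and, with the exception of complex II, pump protons, and ATP synthase, here complex V, uses the resulting gradient to make ATP. Most subunits are nuclear genes whose products are imported and assembled with a small set made from mitochondrial DNA. In osteoblasts, which also run glycolysis at a high rate, oxidative phosphorylation supplies ATP during matrix production. Promoters of many of these genes are known to be bound by NRF1 and by ETS factors such as GABP.

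The promoters of 6 subunit genes are shown, for genes that lay lower within both replicates in complexes I, II, IV and V. They show how unlike these promoters are: within the bases shown, some hold an NRF1 or ETS motif and some hold neither. Each is the last 150 bases before the start site, from RefSeq on GRCm38.p6. Capitals mark every match, on either strand, to the NRF1 motif GCGCANGCG or the ETS motif CCGGAAG. Sdhb has no such match in the bases shown but holds an ETS motif in the longer window of 300 bases counted below. The regions are chr6:126849145-126849294 (minus strand) for Ndufa9, chr2:36049339-36049488 (minus) for Ndufa8, chr4:140961121-140961270 (plus) for Sdhb, chrX:106015550-106015699 (plus) for Cox7b, chr5:115348959-115349108 (minus) for Cox6a1 and chr11:115419920-115420069 (minus) for Atp5h.
Ndufa9: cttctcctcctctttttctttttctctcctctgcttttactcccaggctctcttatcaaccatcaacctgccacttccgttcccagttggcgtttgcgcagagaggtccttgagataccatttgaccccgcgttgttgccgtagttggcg
Ndufa8: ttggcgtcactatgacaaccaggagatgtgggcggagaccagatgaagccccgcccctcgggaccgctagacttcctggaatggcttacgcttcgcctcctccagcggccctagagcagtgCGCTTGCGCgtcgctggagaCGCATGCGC
Sdhb: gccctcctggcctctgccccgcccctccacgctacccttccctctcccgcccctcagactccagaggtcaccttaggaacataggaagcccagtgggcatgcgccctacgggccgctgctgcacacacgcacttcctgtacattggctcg
Cox7b: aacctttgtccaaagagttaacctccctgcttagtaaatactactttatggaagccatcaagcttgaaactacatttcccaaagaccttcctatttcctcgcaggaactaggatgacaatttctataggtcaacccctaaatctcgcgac
Cox6a1: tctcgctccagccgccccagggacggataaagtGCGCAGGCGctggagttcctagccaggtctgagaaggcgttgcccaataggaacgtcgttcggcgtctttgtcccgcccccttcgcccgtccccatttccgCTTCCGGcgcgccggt
Atp5h: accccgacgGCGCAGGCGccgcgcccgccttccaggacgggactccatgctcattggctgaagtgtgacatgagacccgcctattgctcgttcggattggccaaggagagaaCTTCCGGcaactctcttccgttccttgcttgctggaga

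Over windows of 300 bases, 250 before and 50 after the start, 64 of the 80 genes had an entry, with 69 promoters in all. The NRF1 motif was in 19 of the 69 (27.5%) and in 6.25% of all 32851 promoters in the table, which also hold those of noncoding genes. The ETS motif was in 17 of the 69 (24.6%), against 8.86% of all, and AAGATGGCG, which YY1 binds, in 6 (8.70%), against 1.40%. The ERR motif TCAAGGTCA was in 2 (2.90%), against 0.42%, and the SP1 motif GGGCGG in 28 (40.6%), against 35.7%. The forms TGTGGT and TGCGGT, which Runt-family proteins such as Runx3 bind, were in 14 (20.3%), against 22.4% of all. The forms went opposite ways: TGTGGT was in 7 (10.1%), against 16.8%, and TGCGGT in 8 (11.6%), against 6.45%. Among the 29 promoters of genes that lay lower within both replicates (defined below) 12 held an NRF1 or ETS motif (41.4%), and among the 40 others 18 did (45.0%). A match describes letters in a window and does not show binding.

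Levels are the deposited values, taken to be log2, and every difference is mutant-labelled minus wild type. Arrays of replicate 2 lay above those of replicate 1, with medians over the tested genes of 7.81 against 7.53, so each replicate was compared within itself. Many rows held exactly the same value on the mutant-labelled and wild-type arrays of a replicate, to the last digit: among all tested genes this was 35.8% in replicate 1 and 50.2% in replicate 2, and among the subunits 23.7% and 36.8%. How these values came to be equal is not stated, so an equal pair is reported as equal and is not taken as evidence of no difference. As a detection floor, 4.71 was used, below which 90% of 1405 rows for odorant and pheromone receptors fell by their means. Genes above it on 2 or more of the 4 arrays were tested, 17841 in all. Of the 80 subunit genes 76 passed, and the other 4 were the pseudogenes Atp5c1-ps and Uqcrh-ps1, with levels from 3.10 to 4.16, and the testis isoforms Cox7b2 and Cox8c, with levels from 3.14 to 4.00.

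Differences in the subunits were small and lay mostly on the lower side. Of the 76 tested, 35 (46.1%) were lower on the mutant-labelled array within both replicates, where 19.5% of all tested genes were. Only 5 were higher within both, Atp5e, Atp5mpl, Cox4i2, Ndufs7 and Uqcrh, where 16.8% of all tested genes were. Another 11 were equal in both (25.7% of all tested genes), 15 equal in 1 and lower in the other (18.7%), 9 equal in 1 and higher in the other (15.9%), and Ndufb11 had opposite signs (3.39%). The median difference over the subunits was -0.05, with -0.05 within replicate 1 and -0.003 within replicate 2, and that over all tested genes was 0.00 in each.

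No subunit passed a test. In limma, fitted over all 17841 genes with group as the only term, 0 subunits had an adjusted p under 0.05 and 0 an unadjusted p under 0.05, where 0.0% and 3.96% of all tested genes did. The subunit of smallest unadjusted p was Atp5h at 0.0858 in limma, and the limma adjusted p was 1 for all 76. This fit leaves the offset between replicates in its spread. With the replicate number as a block, 13 subunits lay lower at an unadjusted limma p under 0.05 and 1 lay higher, against 6.74% and 6.26% of all tested genes, and 0 passed after adjustment. The block fit has 1 residual degree of freedom. In it the 25.7% of tested genes that were equal in both replicates have no residual spread. Because limma pools the spread over genes, its block p-values rest partly on these unexplained equal values. With replicate 1 of the mutant-labelled arrays left out the subunit median was 0.036, and with replicate 2 of wild type left out 0.041, each beside an all-gene median of 0.15. Differences of at least 1.5-fold within both replicates were found in 0 subunits, against 1.15% of tested genes lower and 1.47% higher by that much. At 1.2-fold there was 1, Atp5h, against 3.76% of tested genes lower and 4.51% higher.

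**Figure D1:**
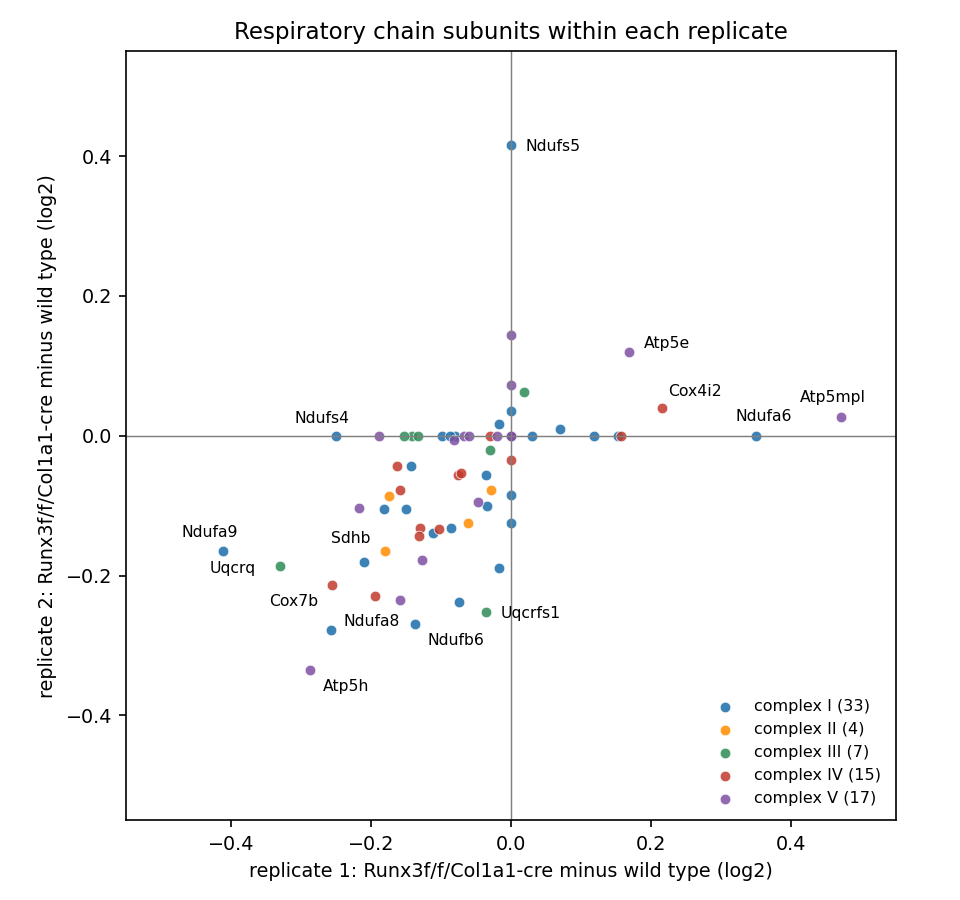
Difference within replicate 1 (x axis) and replicate 2 (y axis) for each of the 76 tested subunits, mutant-labelled minus wild type in log2 units, coloured by complex. Of the points, 35 lie at the lower left and 5 at the upper right, and points on an axis line were exactly equal within that replicate.

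Brightness of a row also depends on its probes and is used here only to split the genes, since bright rows differed more often. The median level of the subunit rows was 9.36, beside 7.66 over all tested genes, and 38 of the 76 were among the brightest 25% of tested genes by mean level. In that brightest part 26 of 38 subunits were lower within both replicates (68.4%) and 1 was higher, against 33.0% and 24.3% of the 4461 genes there. Below it 9 of 38 subunits were lower and 4 higher, against 14.9% and 14.3%. If only differences of more than 0.05 within both replicates are counted, 25 subunits lay lower and 1 higher, against 13.6% and 12.4% of all tested genes. With arrays first centred on their medians 61 lay lower, against 64.3% of all tested genes, and after quantile normalization again 57 did, against 63.3%, because either step moves equal pairs off equality. The splits by level and by size were chosen after the data were examined.

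**Figure D2:**
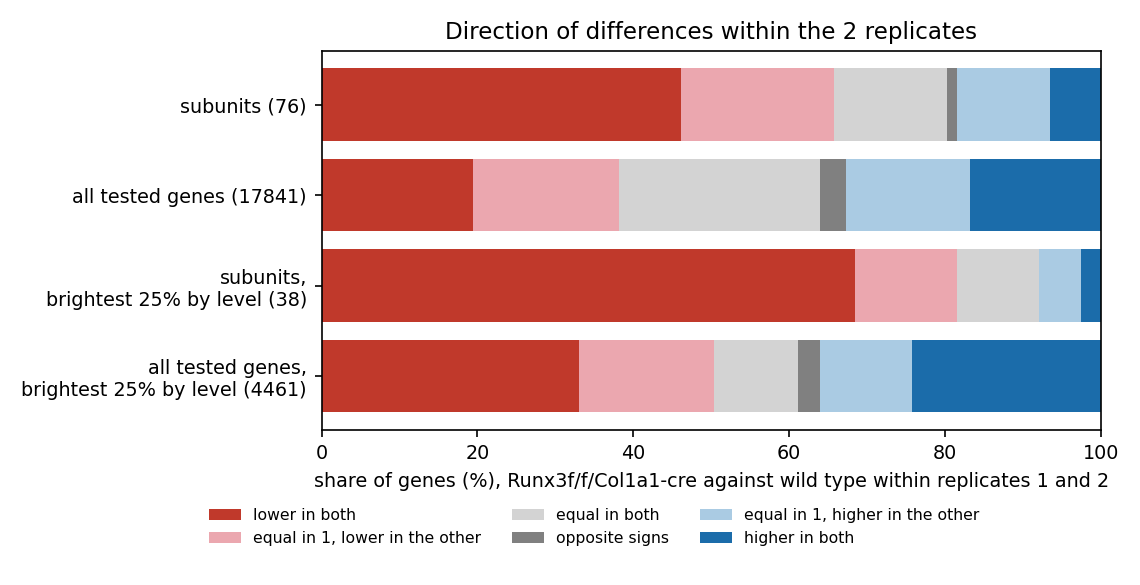
Share of genes (x axis, percent) by the direction of the difference within the 2 replicates, for the subunits and for all tested genes, and again for those in the brightest 25% by mean level. The dark red part, lower in both, spans 46.1% of the subunits and 19.5% of all tested genes, and 68.4% and 33.0% among the brightest.

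Complex I, NADH dehydrogenase, takes electrons from NADH through a matrix arm that carries the flavin and the iron-sulphur clusters. Placed here by symbol alone were 33 genes, Ndufa4 and Ndufa4l2 among them, and their place in the complex was not checked. Of the 33, 13 were lower within both replicates, Ndufa4 included, 1 was higher and 6 were equal in both. Another 12 were equal in 1 replicate (6 lower and 6 higher in the other) and 1 had opposite signs. The median difference was -0.04. Ndufa9, an accessory subunit where the matrix and membrane arms meet, read 10.00 and 10.27 on the mutant-labelled arrays against 10.42 and 10.44 in wild type. Replicate 1 gave the larger gap, -0.41 against -0.17 in replicate 2, and the mean of -0.29 (SE 0.15) was 1.22-fold. Ndufa8, an accessory subunit on the intermembrane side, read 10.13 and 10.12 against 10.38 and 10.39. Its replicates lay close together, so the difference of -0.27 (SE 0.11) exceeded the spread of either group (SD 0.0066 and 0.0074, n = 2), although the limma adjusted p was 1.

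The catalytic members of complex I followed with smaller gaps. Ndufs1, the largest iron-sulphur subunit, read 8.89 and 8.94 against 9.10 and 9.13, a difference of -0.20 (SE 0.12). Ndufv1, which binds NADH and the flavin, read 10.15 and 10.22 against 10.30 and 10.32, a difference of -0.13 (SE 0.12). In both genes each mutant-labelled array lay below each wild-type array. Ndufs7, the iron-sulphur subunit next to the quinone, was the only core subunit higher within both replicates, by 0.07 and 0.01. Of the 6 core subunits with a row, 4 were lower within both replicates, and of the 27 other genes placed here by symbol 9 were. These sets differed in brightness, with a median level of 10.42 for the core subunits and 9.17 for the others. Among all tested genes, 33.0% of those in the brightest part, from a level of 9.38, were lower within both replicates, and 14.9% below it. The difference between core and other genes was not tested.

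Ndufb6, an accessory subunit of the membrane arm, read 9.42 and 9.92 against 9.55 and 10.19. The difference of -0.20 is smaller than the spread within groups (SD 0.36 and 0.45, n = 2), because replicate 2 was brighter on both arrays. Genes outside the naming rule, picked after their values were seen, show how uneven the complex was. Ndufa6, another accessory subunit, differed by 0.35 in replicate 1 and was equal in replicate 2, and Ndufs4, an accessory subunit of the matrix arm, differed by -0.25 in replicate 1 and was equal in replicate 2. Ndufs5 differed by 0.42 in replicate 2 alone, on a row whose level of 4.71 lay at the detection floor. Ndufa2, Ndufb3, Ndufb5, Ndufb10, Ndufc1 and Ndufv3 were equal within both replicates.

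Complex II, succinate dehydrogenase, links the citric acid cycle to the chain and has 4 subunits, all nuclear. All 4 were lower within both replicates, as were 19.5% of all tested genes, with a median difference of -0.11. Sdhb, the iron-sulphur subunit, read 8.86 and 9.00 against 9.04 and 9.17 and differed by -0.18 and -0.17. Sdhc, a membrane anchor, read 9.64 and 9.86 against 9.81 and 9.94. Its arrays overlapped between the groups because of the offset between replicates. Sdha, the flavoprotein that oxidises succinate, read 11.16 on both mutant-labelled arrays against 11.22 and 11.29. Sdhd, the other anchor, gave the smallest differences of the complex, -0.03 and -0.08, with 9.56 and 9.68 against 9.59 and 9.76. Differences of this size were within their standard errors except in Sdhb (-0.17, SE 0.13), and the unadjusted limma p of that gene was 0.276 (adjusted p = 1). These standard errors include the offset between replicates. With the replicate number as a block, the unadjusted limma p was 0.0074 for Sdhb (adjusted p = 0.203). In that fit it was 0.119 for Sdha, 0.123 for Sdhc and 0.179 for Sdhd. These block p-values carry the limit from equal values given above.

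Complex III, the cytochrome bc1 complex, passes electrons from ubiquinol to cytochrome c. Of its 7 tested genes 3 (42.9%) were lower within both replicates and 1 (14.3%) higher, beside 19.5% and 16.8% of all tested genes. The other 3, Uqcrc1, Uqcrc2 and Uqcr11, were lower in replicate 1 and equal in replicate 2. The median difference was -0.07, with -0.13 in replicate 1 and 0.00 in replicate 2. Uqcrq, a small membrane subunit, read 6.89 and 7.47 against 7.22 and 7.66, with -0.33 and -0.19 within the replicates. Uqcrfs1, the Rieske iron-sulphur protein, read 7.37 and 7.61 against 7.41 and 7.86, so its gap came almost wholly from replicate 2 (-0.25, beside -0.04). Arrays of the groups overlapped in both genes. Uqcrb, a small matrix-side subunit, differed by -0.03 and -0.02, and Uqcrh, the hinge protein that helps cytochrome c bind, by 0.02 and 0.06. The mean differences, -0.02 for Uqcrb (SD 0.29 and 0.28, n = 2) and 0.04 for Uqcrh (SD 0.06 and 0.09), were smaller than the spread of either group. That spread includes the offset between replicates.

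Complex IV, cytochrome c oxidase, reduces oxygen. Its nuclear subunits surround the catalytic core made from mitochondrial DNA. Of 15 tested genes 9 (60.0%) were lower within both replicates and only Cox4i2 (6.67%) was higher, beside 19.5% and 16.8% of all tested genes. The median difference was -0.07 (-0.08 and -0.05 within the replicates). Cox7b, a small membrane subunit, read 11.60 and 12.05 against 11.86 and 12.26, with -0.26 and -0.21 within the replicates. Cox5b, a zinc-binding matrix subunit, read 10.57 and 10.97 against 10.76 and 11.20, with -0.19 and -0.23. In both genes the 2 replicates gave like gaps, but the offset between replicates made the groups overlap, and the SEs, 0.25 in each, reflect that offset.

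Cox7b, Ndufa1 and Ndufb11 lie on the X chromosome in the RefSeq table. Xist, the RNA of the inactive X, read 10.51 and 10.57 on the mutant-labelled arrays against 11.79 and 11.99, and Eif2s3y, a gene of the Y chromosome, 9.38 and 9.32 against 6.72 and 7.42. Kdm5d and Uty, also of the Y chromosome, differed by 2.56 and 1.99 and by 2.37 and 1.97. For Xist and each of these Y genes the groups did not overlap. The part of this in the values of the 3 X-linked genes, or of any other gene compared here, was not tested. Ndufa1, an accessory complex I subunit, read 7.59 and 7.63 against 7.67 and 7.87, and Ndufb11 differed by -0.02 and 0.02.

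Several complex IV subunits have a widespread form and a form typical of one tissue. Cox4i1, the widespread form of subunit 4, read 10.09 and 10.06 against 10.25 and 10.14, a difference of -0.12 (SE 0.12) with no overlap between groups. Cox4i2, its form typical of lung, read 8.22 and 8.39 against 8.00 and 8.36, a difference of 0.13 (SE 0.19) with overlap. Cox6a1 differed by -0.10 and -0.13 and Cox6b1 by -0.13 in each replicate. Of their tissue forms, the heart and muscle form Cox6a2 was equal in replicate 1 and differed by -0.03 in replicate 2, and the testis form Cox6b2 of the second pair differed by 0.16 in replicate 1 and was equal in replicate 2. Cox7a2 read 10.97 and 10.98 against 11.10 and 11.13 with no overlap, while the muscle form Cox7a1 was equal within both replicates. Cox8a differed by -0.07 and -0.05, and Cox8b, the other muscle form, by -0.16 and -0.04 on a row between 4.09 and 4.94, around the detection floor. The difference between forms of a subunit was not tested.

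Complex V makes ATP in a catalytic head turned by a ring in the membrane and held by a peripheral stalk. Of 17 tested genes 6 were lower within both replicates, 2 were higher, 3 were equal in both and 6 were equal in 1 replicate (4 lower and 2 higher in the other). The median difference was -0.03. Atp5h, subunit d of the peripheral stalk, read 11.22 and 11.07 against 11.50 and 11.41. This was the largest mean difference toward lower values among the subunits, -0.31 (SE 0.13, 1.24-fold), with -0.29 and -0.34 within the replicates and no overlap between groups. Atp5pb, subunit b of the same stalk and named after its values were seen, read 10.19 and 10.15 against 10.32 on both wild-type arrays.

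In the catalytic head, Atp5a1, the alpha subunit, read 11.39 and 11.37 against 11.55 and 11.61, a difference of -0.20 (SE 0.12) with no overlap. Atp5b, the beta subunit that carries the active sites, read 12.75 and 13.09 against 12.83 and 13.09 and differed by -0.04 (SE 0.20). Atp5e, the epsilon subunit of the central stalk, lay on the other side at 8.94 and 8.85 against 8.77 and 8.73, and was the only subunit with both mutant-labelled arrays above both wild-type arrays. Separate genes, Atp5g1 to Atp5g3, encode the same mature ring subunit c. Atp5g3 read 8.91 and 9.07 against 9.13 and 9.17, Atp5g2 differed by -0.05 and -0.09, and Atp5g1 by -0.19 in replicate 1 while equal in replicate 2. Atp5mpl, a small proteolipid of the complex, had the largest difference in the other direction, 0.47 in replicate 1, but only 0.03 in replicate 2. Atp5d, Atp5j2 and Atp5k were equal within both replicates, as were Cox7a1 and Cox7a2l among the complex IV genes.

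**Figure D3:**
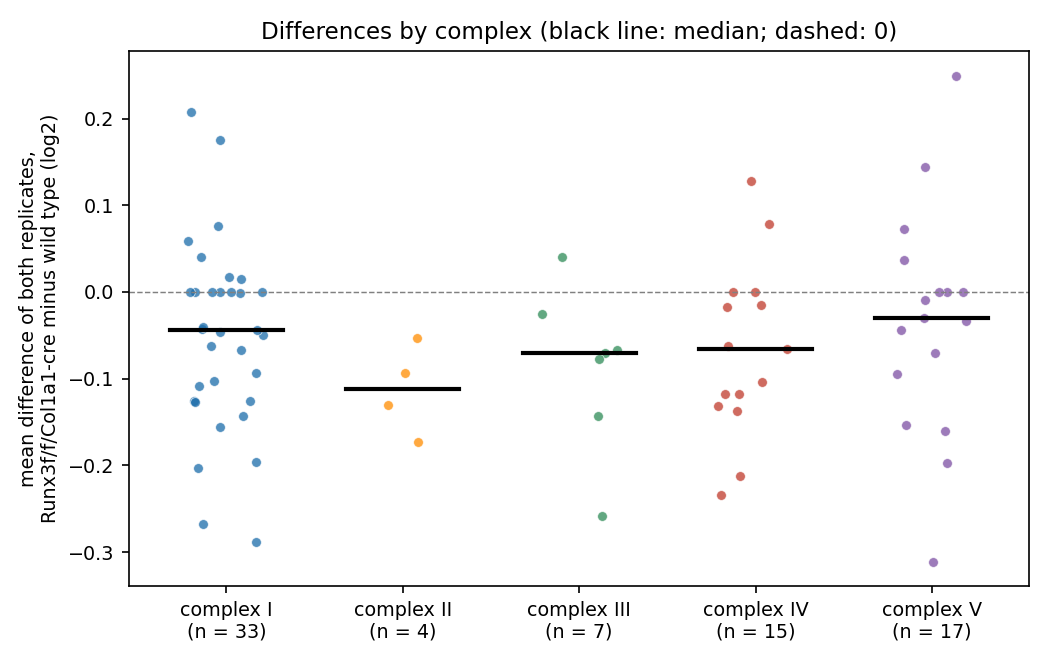
Mean of the 2 within-replicate differences (y axis, log2, mutant-labelled minus wild type) for each tested subunit, by complex, with the median as a black line. The medians are -0.04, -0.11, -0.07, -0.07 and -0.03 for complexes I to V, and single genes run from -0.31 to 0.25.

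The 4 arrays separated by group in 15 of the 76 subunits. In 14 both mutant-labelled arrays lay below both wild-type arrays, against 9.25% of all tested genes, and in 1, Atp5e, above, against 7.66%. Bright genes separated more often. In the brightest part by mean level, split off above, 10 of 38 subunits lay apart and lower, beside 744 of the 4461 genes there. Below that part 4 of 38 subunits did, beside 906 of 13380 genes. The 14 were Ndufa1, Ndufa8, Ndufa9, Ndufs1, Ndufv1 and Ndufv2 of complex I, Sdha and Sdhb of complex II, Cox4i1 and Cox7a2 of complex IV and Atp5a1, Atp5g3, Atp5h and Atp5pb of complex V. Ndufv2, which carries an iron-sulphur cluster beside Ndufv1, did so with a difference of only -0.05. Whether the groups overlap depends on how far a row moves between replicates, so a gene such as Cox6b1, with -0.13 in each replicate, is not among them.

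**Figure D4:**
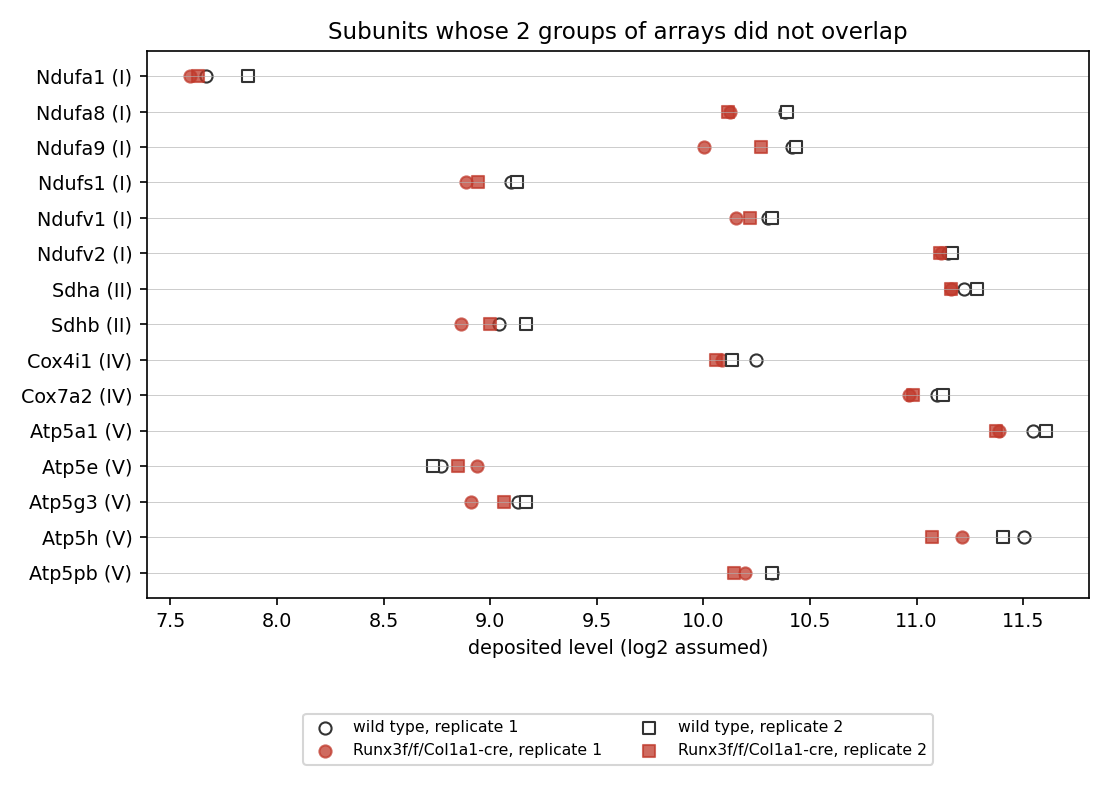
Deposited level (x axis, taken as log2) on each of the 4 arrays for the 15 subunits whose groups did not overlap, with the complex in brackets; filled red symbols are mutant-labelled and open symbols wild type. In 14 rows both red symbols lie to the left, by mean differences from -0.05 to -0.31, and in Atp5e to the right.

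A second row existed for 9 subunits and was not used above. The second row lay lower within both replicates for Atp5h, Atp5g2, Cox5b, Cox7b, Ndufa8 and Ndufa12. For Cox5b it gave -0.25 and -0.27, beside -0.19 and -0.23 on the brighter row, and for Cox7b -0.28 and -0.60, beside -0.26 and -0.21. For Ndufa8 it gave only -0.08 and -0.01. For Atp5h it gave -0.35 in replicate 1 but only -0.04 in replicate 2, beside -0.29 and -0.34 on the brighter row. The 1.2-fold difference of Atp5h within both replicates was thus not repeated on its second row. Ndufa12, an accessory subunit of complex I, was at -0.28 and -0.30 on its second row and at 0.00 and -0.12 on its brighter one, so its rows disagree in size. Atp5e was equal within both replicates on its second row, which does not repeat the higher values of the first. Many of these genes have processed copies elsewhere in the genome, and rows may share signal with them.

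Genes that build or feed the chain were read from lists. Over all tested genes 19.5% were lower within both replicates and 16.8% higher. Among the brightest 25%, which begin at a level of 9.38, the shares were 33.0% and 24.3%. No member of the lists of metabolism, assembly and biogenesis passed the adjusted limma threshold (smallest adjusted p = 0.323), and 1 had an unadjusted limma p under 0.05. Of 48 assembly factors, which insert subunits and cofactors, 15 (31.25%) were lower within both replicates and 3 (6.25%) higher, with a median of -0.02. Acad9, needed to assemble complex I, read 8.58 and 8.79 against 9.01 and 9.10, and Atpaf2, a chaperone of the ATP synthase head, 9.13 and 9.31 against 9.49 and 9.75; neither overlapped. Of 18 genes of the citric acid cycle, which supplies NADH and succinate, and of pyruvate entry into it, 12 (66.7%) were lower within both. Pdhb and Dlat of pyruvate dehydrogenase were among them. Only 1 (5.56%), the pyruvate carboxylase gene Pcx, was higher. The median difference was -0.07 and the median level 10.1, in the range of the brightest 25%. Idh3a, the catalytic subunit of NAD-dependent isocitrate dehydrogenase, differed by -0.31 and -0.33, and Ogdh, of the oxoglutarate dehydrogenase complex, by -0.20 and -0.18. Of the 7 carriers and subunits that the symbol rule left out, such as cytochrome c and cytochrome c1, 2 (28.6%) were lower and 0 higher.

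Of 20 genes of glycolysis and of lactate and pyruvate handling, 9 (45.0%) were lower within both replicates and 2 (10.0%) higher. The median difference was -0.05 and the median level 10.1, also in the range of the brightest 25%. Slc16a1, a lactate transporter, differed by -0.28 and -0.36, and Pfkp, a phosphofructokinase, by 0.19 and 0.24. Of 18 genes of fatty acid oxidation 5 (27.8%) were lower and 3 (16.7%) higher, with a median of -0.004. Acadm, the medium-chain dehydrogenase, differed by 0.23 and 0.28. Of 12 genes of coenzyme Q synthesis 2 were lower and 2 higher (16.7% each). Of 19 regulators of mitochondrial biogenesis 4 (21.1%) were lower, 3 (15.8%) higher and 8 equal in both. The shares lower and higher in the lists of coenzyme Q synthesis and of regulators lay near those of all tested genes, 19.5% and 16.8%. The 1 gene with an unadjusted p under 0.05 was Polg2, the accessory subunit of the mitochondrial DNA polymerase, at 8.49 and 8.47 against 6.47 and 6.84 (1.82, SE 0.18, limma adjusted p = 0.323). Tfb1m, a methyltransferase of mitochondrial ribosomal RNA, differed by 0.46 and 0.27.

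**Figure D5:**
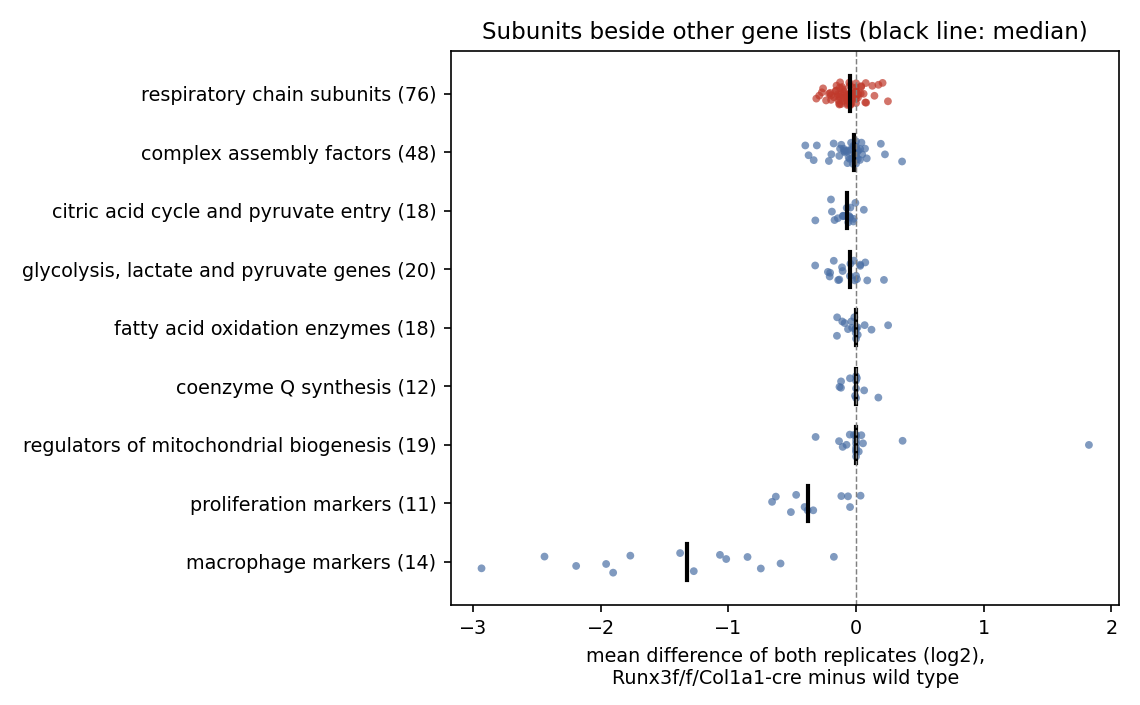
Mean of the 2 within-replicate differences (x axis, log2, mutant-labelled minus wild type) for the subunits and for 8 other lists, 1 point per tested gene, with the median as a black line. The subunit median of -0.05 lies beside -0.07 for the citric acid cycle and pyruvate entry and -0.05 for glycolysis, lactate and pyruvate genes, while the medians of proliferation and macrophage markers are -0.38 and -1.32.

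Markers of macrophages, adipocytes, osteoblasts and dividing cells also lay mostly lower, and those of osteoclasts and muscle did not. Over all tested genes 19.5% were lower within both replicates and 16.8% higher. All 14 macrophage markers were lower within both replicates, 11 of them at an unadjusted limma p under 0.05 and 0 after adjustment (smallest adjusted p = 0.312); their mean level was 6.60 and 6.80 on the mutant-labelled arrays against 8.14 and 8.17, and Mrc1, the mannose receptor, differed by -2.90 and -2.97. Of 11 proliferation markers 8 were lower and 0 higher (5 at an unadjusted limma p under 0.05, smallest adjusted p = 0.715). Their mean levels were 9.14 and 9.26 against 9.49 and 9.56. Mcm6, a helicase subunit of DNA replication, differed by -0.68 and -0.63. Mki67 and Ccna2 differed by only -0.13 and -0.09 in replicate 1 and were equal in replicate 2. Pcna was equal in replicate 1 and differed by 0.07 in replicate 2. Of 8 adipocyte markers 6 were lower and 0 higher, with means of 6.48 and 6.82 against 7.23 and 7.46. The largest gaps were in Cd36 (-2.35 and -1.85), Lpl (-1.46 and -1.59) and Pparg (-0.77 and -0.71). Fabp4 differed by only -0.25 and -0.05, and Lep was equal within both replicates. Which cell type these values come from was not tested. Of 7 osteoclast markers 1 was lower, Atp6v0d2 by -1.54 and -0.94, and 1 higher, Acp5 by 0.27 and 0.33. The part of these cells in the subunit values was not tested. Of 9 osteoblast markers 5 were lower and 1, Sp7, higher, with a median of -0.54. Their mean levels were 9.54 and 9.79 on the mutant-labelled arrays against 10.17 and 10.37. Dmp1 differed by -1.61 and -1.31, Mepe by -1.15 and -1.16, Phex by -0.89 and -0.77 and Bglap by -0.57 and -0.50. Col1a1 lay between 13.45 and 13.57 and Alpl, alkaline phosphatase, between 11.33 and 11.42, while Ibsp, bone sialoprotein, differed by -1.56 and -1.53. The tissue tag of the labels reads myoblast; of 10 tested muscle genes 1 was lower and 2 higher within both replicates, Myod1 and Myog were equal, and Myh1, a myosin of skeletal muscle, differed by 1.22 and 0.90. Of 8 housekeeping genes 3 were lower and 2 higher, with a median of -0.05.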

How the data were processed

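The 4 Affymetrix Mouse Gene 2.0 ST arrays were deposited as 1 table of 41345 rows. The authors' deposited values are taken to be log2 intensities: they lie between 2.26 and 14.1, and Partek and RMA appear in the submitters' processing notes with no version. Log base and centring are not stated there. Rows were named through the platform annotation: 23521 had 1 symbol, 1814 had several and 16010 had none listed, and only the first were used. Tests used limma 3.58.1 under R 4.3.3 (lmFit, eBayes, two-sided, Benjamini-Hochberg over 17841 genes), without the replicate block, with 2 residual degrees of freedom. Nothing says that cultures came from separate animals, so p-values measure the spread between these arrays. The fits were tested on simulated data. The labels do not say what a replicate number shares. The members and gene lists were chosen with earlier results of these data known. Named with values were the 4 largest same-direction differences per complex, all of complex II, isoform pairs, catalytic subunits and leading genes of the lists (32 subunits). Added to these were 10 subunits and some list genes picked after their values were seen. Alternatives covered floor, rows, normalization, variance model, block and arrays left out. The number of arrays, 2 per group, limits the precision.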

Additional observations from a re-analysis of the deposited data

How the results depend on the processing

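The count of 0 subunits past the adjusted limma threshold held under each alternative run, the replicate block included, which called 0 genes of all tested. Deviations of same-numbered arrays from their group means correlated at 0.92 across genes, but what a replicate number shares is not in the labels. The unexplained equal values enter this correlation, since 25.7% of tested genes were equal in both replicates and so have identical deviations. Over all genes the count was 0 in limma, 49 with an intensity trend, 335 with the replicate block and quantile normalization again, and 707 at unadjusted p under 0.05. The 35 subunits lower within both replicates became 61 with arrays centred on their medians and 57 after quantile normalization again. Those settings shift equal pairs off equality, and 64.3% and 63.3% of all tested genes were then lower. At 1.2-fold 1 subunit lay lower and 0 higher, and at 1.5-fold 0 either way. The 5 higher became 1 above 0.05 log2 and 1 among the brightest 25%, splits chosen after seeing the data. With an array left out, the offset between replicates enters the difference, and the all-gene median spanned -0.16 to 0.15. The subunit median ran from -0.19 to 0.041, and that of complex I from -0.16 to 0.066, complex II from -0.18 to -0.057, complex III from -0.20 to 0.031, complex IV from -0.25 to 0.082 and complex V from -0.19 to 0.040. Of 42 named subunits, 23 changed sign in at least 1 such fit and 0 did under the other alternatives. Their ranges were -0.21 to 0.12 for Atp5b, -0.50 to 0.32 for Atp5g1, -0.18 to 0.037 for Atp5g2, -0.23 to 0.73 for Atp5mpl, -0.048 to 0.30 for Cox4i2, -0.43 to 0.0063 for Cox5b, -0.25 to 0.015 for Cox6a1, -0.11 to 0.078 for Cox6a2, -0.36 to 0.095 for Cox6b1, -0.13 to 0.29 for Cox6b2, -0.21 to 0.082 for Cox8a, -0.51 to 0.30 for Cox8b, -0.32 to 0.20 for Ndufa12, -0.21 to 0.56 for Ndufa6, -0.072 to 0.071 for Ndufb11, -0.52 to 0.12 for Ndufb6, -0.31 to 0.060 for Ndufs4, -0.036 to 0.12 for Ndufs7, -0.14 to 0.034 for Sdhd, -0.23 to 0.18 for Uqcrb, -0.37 to 0.082 for Uqcrfs1, -0.026 to 0.11 for Uqcrh and -0.55 to 0.031 for Uqcrq. Col1a1 ran from -0.069 to 0.049 and Alpl from -0.081 to 0.011; Col1a1 was at 0.025 after quantile normalization again, with and without the replicate block, and Alpl at 0.074 for the mean of its rows.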
